A study of Mus musculus with 6 samples.

Results

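The 10 genes described here are immediate early genes, 10 of the 32530 genes and unnamed targets on the array: Fos, Fosb, Jun, Junb, Egr1, Egr2, Egr3, Nr4a1, Ier2 and Dusp1. They were given by name, and each was found by matching the accession of its probe to a RefSeq gene table. Each has 1 probe, printed once per array except that of Fos, which was printed 10 times. RNA came from mouse trunks at embryonic day 9.5, cut out in cold PBS, with the forelimbs and the body between otic vesicle and somite 15. The 2 groups were Arid3b-null embryos and wild type embryos, with 3 arrays each and the RNA of 4 pooled embryos on each array. The labels name no allele, strain or litter, so the null embryos are described here only as Arid3b-null. Since each array holds a pool, the spread between arrays is that between pools and not that between embryos.

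Immediate early genes are transcribed within minutes of a stimulus from factors that the cell already holds. Growth factor signalling through MAP kinases reaches serum response factor (SRF) and its ternary complex partners, which bind CArG boxes, while cyclic AMP and calcium reach CREB, which binds the cyclic AMP response element (CRE). Fos, Fosb, Jun and Junb encode subunits of the AP-1 dimer, Egr1, Egr2 and Egr3 encode zinc finger factors, and Nr4a1 encodes an orphan nuclear receptor. Ier2 encodes a small nuclear protein, and Dusp1 a phosphatase that switches MAP kinases off. Cutting, warming or dissociating a tissue can itself start these genes, which is why they are read as a check on how embryos were handled. Egr2, also called Krox20, is in addition a patterning gene of the hindbrain rhombomeres and of early Schwann cells.

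RefSeq promoter windows of assembly GRCm38.p6 are shown for 5 of the genes, 3 that rose in the test below (Fos, Egr2, Nr4a1) and 2 that did not pass it (Dusp1, Jun), chosen after their values were seen, so that the letters for CREB and SRF can be set beside the values. Each line is the 250 bases before the start of the transcript, read 5′ to 3′ on the gene's own strand. Capitals mark TGACG, the CRE half-site, or its reverse complement CGTCA, the CArG box, and TATAA or its reverse complement TTATA. Fos lies at chr12:85473640-85473889 on the plus strand, Egr2 at chr10:67537619-67537868 on the plus strand, Nr4a1 at chr15:101266596-101266845 on the plus strand, Dusp1 at chr17:26508473-26508722 on the minus strand and Jun at chr4:95052223-95052472 on the minus strand.
Fos: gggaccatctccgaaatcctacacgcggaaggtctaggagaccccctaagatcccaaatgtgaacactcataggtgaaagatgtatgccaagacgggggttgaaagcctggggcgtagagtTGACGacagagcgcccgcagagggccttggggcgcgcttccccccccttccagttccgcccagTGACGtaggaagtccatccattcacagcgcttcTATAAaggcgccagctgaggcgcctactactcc
Egr2: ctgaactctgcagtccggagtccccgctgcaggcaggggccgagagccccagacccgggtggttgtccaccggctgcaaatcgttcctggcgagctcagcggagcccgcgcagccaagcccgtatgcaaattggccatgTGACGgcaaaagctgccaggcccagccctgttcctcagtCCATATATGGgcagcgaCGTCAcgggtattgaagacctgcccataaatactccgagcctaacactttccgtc
Nr4a1: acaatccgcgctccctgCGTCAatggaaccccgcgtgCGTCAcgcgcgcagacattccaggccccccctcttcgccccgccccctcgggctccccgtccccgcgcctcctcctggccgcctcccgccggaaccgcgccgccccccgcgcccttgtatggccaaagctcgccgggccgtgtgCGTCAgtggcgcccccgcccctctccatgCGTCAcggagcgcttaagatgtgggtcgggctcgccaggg
Dusp1: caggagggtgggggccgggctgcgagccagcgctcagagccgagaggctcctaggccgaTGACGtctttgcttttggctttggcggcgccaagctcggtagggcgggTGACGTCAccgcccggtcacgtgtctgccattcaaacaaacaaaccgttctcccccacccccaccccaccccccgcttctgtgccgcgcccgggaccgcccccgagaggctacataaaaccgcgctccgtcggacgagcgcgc
Jun: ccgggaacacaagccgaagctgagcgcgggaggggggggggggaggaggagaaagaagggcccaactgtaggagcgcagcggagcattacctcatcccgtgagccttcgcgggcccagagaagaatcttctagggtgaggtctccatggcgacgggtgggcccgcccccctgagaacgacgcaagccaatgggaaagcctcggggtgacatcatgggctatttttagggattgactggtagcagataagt

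The window of Fos holds TGACG at positions -129 and -66 from the start, and that of Nr4a1 holds CGTCA at 4 places. The Egr2 window shown, 1 of 5 in the table, was picked because it holds a CArG box, CCATATATGG, at position -72, and it also holds 2 CRE half-sites. Dusp1 holds the full element TGACGTCA, which contains the half-site, at position -143, and Jun holds none of these letters in its window. No window of Egr1, Egr3 or Ier2 was used, so the counts do not cover these genes, of which Egr1 rose in the test below. Over the 7 genes with a window used here, TGACG was found on either strand in 6 (3 of the 5 Egr2 windows), and in 17.8% of all 32851 windows. A gene counts if any of its windows holds the motif, so counts of genes and shares of windows are in unlike units. The full element was found in 1 of the 7 genes and in 1.55% of all windows, the CArG box in 1 of the 7 (4 of the 5 Egr2 windows) and in 1.47%, and TATAA in 2 of the 7 and in 22.8%. The AP-1 site TGANTCA was found in 0 of the 7 genes and in 6.75% of all windows. Only the 250 bases before the start were searched, so a site farther upstream or after the start is not counted. A window without a motif therefore does not mean a gene without it. These are matches of letters in the genome sequence, not measurements of binding.

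Levels below are log2 values of the background-subtracted signal, from which each array's 75th percentile was taken off, so 0 is the brightness that 75% of the spots stay under. Probes differ in how brightly they read their RNA, so levels are compared between arrays and not between genes, and the brightest marker of a list is named only to identify it. Slides 1, 2 and 3 each held 1 wild type array at the first position and the Arid3b-null array of the same replicate number at the second, so slide and scan did not split the groups, but position on the slide and genotype cannot be told apart. The Arid3b probes served as a check of the labels. The brightest was 0.55 ± 0.10 in Arid3b-null and 2.24 ± 0.31 in wild type (SD, n = 3 each), with 31.0% of the wild type signal left. Its other 2 probes had 26.9% and 10.6% left. Each of these 2 was well above background on only 2 of 3 Arid3b-null arrays, so their shares are limited by the background. Across 19792 tested genes, limma with Benjamini-Hochberg adjustment called 5254 at 0.05, of which 13.6% of the tested genes were higher and 12.9% lower in Arid3b-null, so that 26.5% were called in all. That count fell to 2865 if wild type replicate 1 was left out and to 3430 if Arid3b-null replicate 2 was. All 10 trunk and forelimb markers (the brightest Pax3) were above background on every array, while Six3 and En1 of the forebrain and midbrain list were above it on none. The other 4 forebrain and midbrain markers were tested, and 0 rose and 1 fell. The 1 that fell was the brightest, Lhx2, which limb buds also express (change -0.46, limma adjusted p = 0.0460). The summed signal of this list, in units of the array's 75th percentile, was 2.16 to 3.01 in Arid3b-null and 3.35 to 3.61 in wild type.

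Of the 10 immediate early genes, 4 rose in Arid3b-null trunks: Egr2, Fos, Nr4a1 and Egr1. Fosb, Jun, Ier2 and Dusp1 did not pass the test in either direction, and Junb and Egr3 were too dim to be tested. Thus 4 of 8 tested genes were higher and 0 lower, where 13.6% of all tested genes were higher and 12.9% lower. Fos and Egr2 entered the test only through the Arid3b-null arrays, in which they are brighter, and entry in this way favours a difference. Of the 6 genes above background on all 6 arrays, 2 were higher, 0 lower and 4 not called, against 13.9% higher and 13.0% lower of all genes above background on every array. The median change of the 8 tested genes, Fos and Egr2 included, was 0.40 on the log2 scale, against -0.04 over all tested genes. Of the 6 genes above background on all 6 arrays, Nr4a1 changed by 1.07, Egr1 by 0.72 and Dusp1 by 0.07. Ier2 changed by -0.13, Jun by -0.26 and Fosb by -0.41. The median over all genes above background on every array was -0.03. For 4 of the 8 genes each Arid3b-null array lay to 1 side of each wild type array, all higher in Arid3b-null and 0 lower, against 46.2% of all genes, 23.0% higher and 23.1% lower. Fos and Egr2 are among these 4. The list was chosen with earlier results of these data known, and it was not tested as a set.

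**Figure D1:**
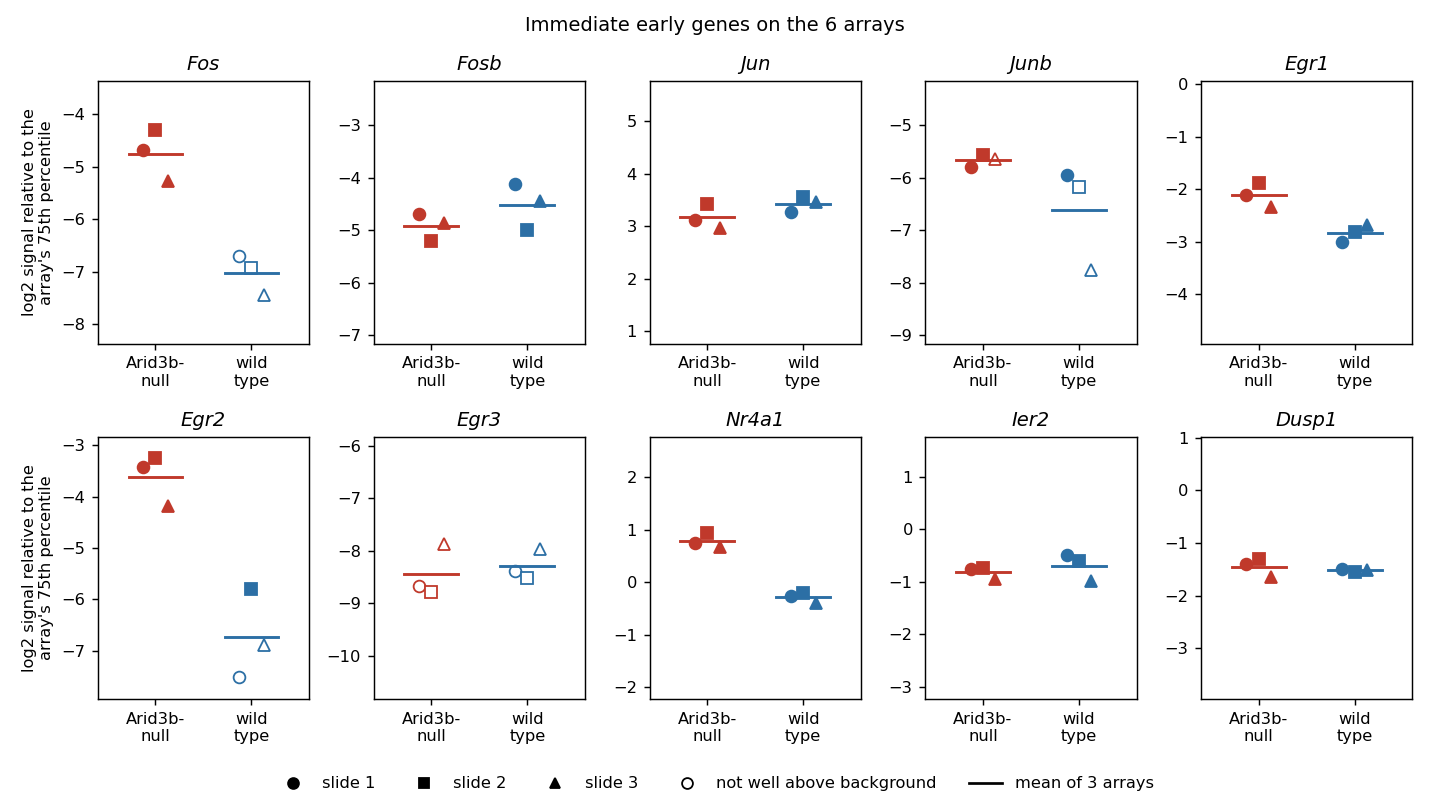
Level of each of the 10 genes on each array, in log2 units relative to the array's 75th percentile, with Arid3b-null arrays on the left and wild type arrays on the right of each gene; circles, squares and triangles are slides 1, 2 and 3, open symbols mark arrays on which the probe was not well above background, and bars are means of 3 arrays. Arid3b-null and wild type points do not overlap for Fos, Egr2, Egr1 and Nr4a1, while they overlap for Fosb, Jun, Ier2 and Dusp1.

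Fos, the inducible partner of Jun proteins in AP-1, was at -4.68, -4.29 and -5.26 in the 3 Arid3b-null pools and at -6.69, -6.93 and -7.43 in the 3 wild type pools. Each Arid3b-null array was above each wild type array. In wild type, 0 of 3 arrays put the probe well above background, so the size of the change was not measured. Set against a floor for the wild type arrays, Fos was 2.90-fold higher in Arid3b-null trunks. Between the measured means, -4.74 ± 0.49 in Arid3b-null and -7.02 ± 0.38 in wild type (SD, n = 3 each), the difference was 2.27 on the log2 scale (SE 0.29, limma adjusted p = 0.00318). The floor is the wild type mean of, on each array, the higher of its own value and the dimmest value that still counted as well above background. Some probes brighter than that dimmest value were not counted as above background. On wild type replicate 2, Junb was at -6.17 and the dimmest counted value at -6.34. The 2.90-fold is thus not a strict minimum, and it carries no error between pools.

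The 10 spots of the Fos probe give a view of the technical error that no other gene of the group has. On the Arid3b-null arrays 10, 10 and 8 of the 10 spots were well above background, and on the wild type arrays 1, 0 and 0 were. One spot on the first wild type array and 3 on the third were left out as outliers. The lowest Arid3b-null spot, at -5.57 on replicate 3, was still above the highest wild type spot, at -6.23 on replicate 2, so no spot of the groups overlapped. The SD over the spots of 1 array was 0.10, 0.13 and 0.33 in Arid3b-null and 0.18, 0.69 and 0.32 in wild type. The spots of 1 array share its RNA pool and were counted as 1 value. In scanner units the mean processed signal was 24.4, 31.6 and 17.9 in Arid3b-null and 8.11, 5.49 and 3.68 in wild type, all close to the dim end of these arrays. With the normexp background correction, which adds an offset of 50 and so shrinks changes of dim probes, the difference of Fos was 0.47 on the log2 scale (limma adjusted p = 0.0330).

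**Figure D2:**
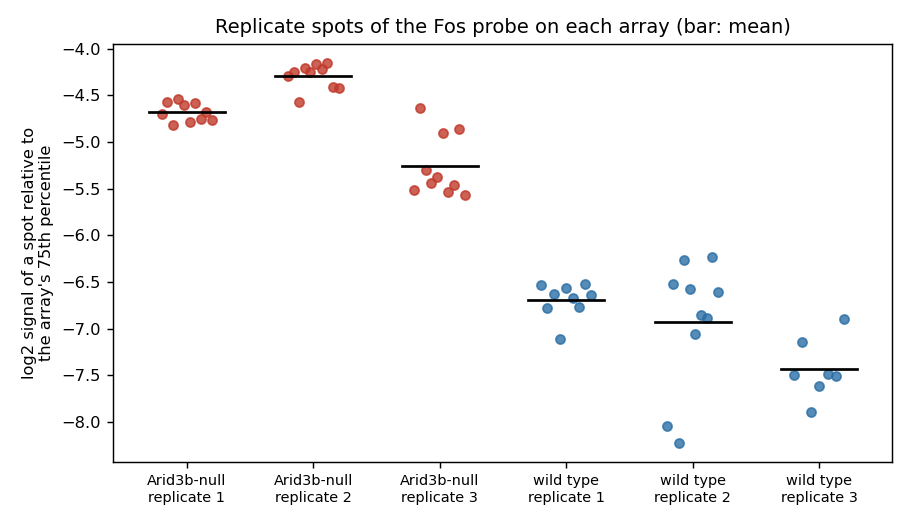
Values of the single spots of the Fos probe on each array, in log2 units relative to the array's 75th percentile, with the 3 Arid3b-null arrays on the left and the 3 wild type arrays on the right; bars are the mean of the spots, and outlier spots are not drawn. All Arid3b-null spots lie at or above -5.57 and all wild type spots at or below -6.23.

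Egr2, the zinc finger factor that also patterns the hindbrain, was at -3.43, -3.25 and -4.18 in Arid3b-null and at -7.52, -5.80 and -6.88 in wild type. The groups did not overlap, and among the wild type arrays only replicate 2 was well above background. The means were -3.62 ± 0.49 in Arid3b-null and -6.74 ± 0.87 in wild type (SD, n = 3 each), a difference of 3.11 (SE 0.46, limma adjusted p = 0.00496) on the log2 scale. No fold is given, because only 1 of the 3 wild type arrays measured the probe. In scanner units the signal was 58.0, 64.7 and 36.8 in Arid3b-null and 4.60, 10.98 and 5.17 in wild type, where 2 of the 3 values lie within the background. The difference was 0.88 under normexp (limma adjusted p = 0.00974), so its size depends on how the background is treated.

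Since Egr2 also marks rhombomeres 3 and 5 and cranial neural crest, 4 other genes of the hindbrain are given beside it (Hoxb1, Hoxa2, Hoxb3 and Epha4). They are not specific to the cells that express Egr2, so they do not measure how many such cells were present. All 4 were above background on every array. Of these, 0 rose, Hoxb3 fell 1.41-fold (limma adjusted p = 0.0203), and 3 did not pass, where 13.6% of all tested genes rose and 12.9% fell. Those 3 were Hoxb1, Hoxa2 and Epha4, with changes of 0.56, -0.28 and -0.05 (limma adjusted p = 0.0693, 0.0781 and 0.826). The summed signal of the 4, in units of the 75th percentile of the array, was 2.66 to 2.84 in Arid3b-null and 2.86 to 3.28 in wild type. Sox10, a marker of neural crest and glia in the trunk list, rose 1.798-fold (limma adjusted p = 0.0104) and was named after its value was seen. Of the 10 trunk and forelimb markers, 2 rose (Sox10 and Tbx6), 1 fell (Hoxa5) and 7 did not pass. Pax3 was among those 7, with a change of 0.11 (limma adjusted p = 0.492). The part of hindbrain or neural crest cells in the Egr2 difference was not tested. In bulk tissue, fewer cells of a type and less RNA per cell cannot be told apart.

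Egr1 and Nr4a1 were above background on all 6 arrays, so their fold changes rest on measured values in both groups. Nr4a1 was at 0.75, 0.95 and 0.67 in Arid3b-null and at -0.26, -0.19 and -0.39 in wild type. It was 2.10-fold higher in Arid3b-null (log2 difference 1.07, SE 0.12, 95% interval 0.79 to 1.36, limma adjusted p = 0.00217). The difference on slides 1, 2 and 3 was 1.01, 1.14 and 1.07, the closest agreement between slides among the 4 genes that rose. Nr4a1 was called under all 14 alternative settings, with differences of 0.94 to 1.13.

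Egr1 was at -2.11, -1.88 and -2.33 in Arid3b-null and at -2.99, -2.81 and -2.68 in wild type. The arrays did not overlap, but the nearest 2, Arid3b-null replicate 3 and wild type replicate 3, stand on the same slide and are 0.35 apart. The difference was 0.72 (SE 0.15, 95% interval 0.36 to 1.08, limma adjusted p = 0.0167), or 1.65-fold. Leaving out wild type replicate 1 ended the call (0.64, limma adjusted p = 0.0620), as did testing all probes with no filter on dim ones (adjusted p = 0.0667), where more genes share the adjustment.

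Of the other AP-1 subunits in the immediate early group, Fosb and Jun did not pass the test. Fosb was at -4.68, -5.20 and -4.87 in Arid3b-null and at -4.11, -4.99 and -4.43 in wild type. It was lower in Arid3b-null on all 3 slides, but the groups overlap and the difference was -0.41 (95% interval -1.002 to 0.19, limma adjusted p = 0.271). Jun, the core partner of the AP-1 dimer, was at 3.12, 3.42 and 2.97 in Arid3b-null and at 3.27, 3.56 and 3.46 in wild type. It was likewise lower on all 3 slides, with a difference of -0.26 (95% interval -0.63 to 0.10, limma adjusted p = 0.246). The upper end of the interval of Jun is a rise of 1.07-fold.

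Junb was well above background on 2 of 3 Arid3b-null arrays and on 1 of 3 wild type arrays. It was at -5.80, -5.57 and -5.65 in Arid3b-null and at -5.95, -6.17 and -7.76 in wild type. Wild type replicate 3 is the low value, with a signal of 2.83 scanner units and a scanner error of 2.81, that is, above 0 by hardly more than its error. Without the filter the difference was 0.95 (limma adjusted p = 0.331 over all probes' genes). Egr3, a relative of Egr1 and Egr2, was well above background on 0 of the 6 arrays, at -8.67, -8.79 and -7.87 in Arid3b-null and at -8.38, -8.52 and -7.97 in wild type, so no fold is given.

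Ier2 was at -0.76, -0.74 and -0.95 in Arid3b-null and at -0.48, -0.60 and -0.98 in wild type. The groups overlap, and the difference was -0.13 (95% interval -0.50 to 0.25, limma adjusted p = 0.588). Dusp1, which MAP kinase signalling itself induces, was at -1.41, -1.30 and -1.65 in Arid3b-null and at -1.50, -1.55 and -1.51 in wild type. The difference was 0.07 (95% interval -0.22 to 0.36, limma adjusted p = 0.704), so a rise above 1.28-fold lies outside the interval. None of Fosb, Jun, Ier2 and Dusp1 was called under any of the 14 alternatives.

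**Figure D3:**
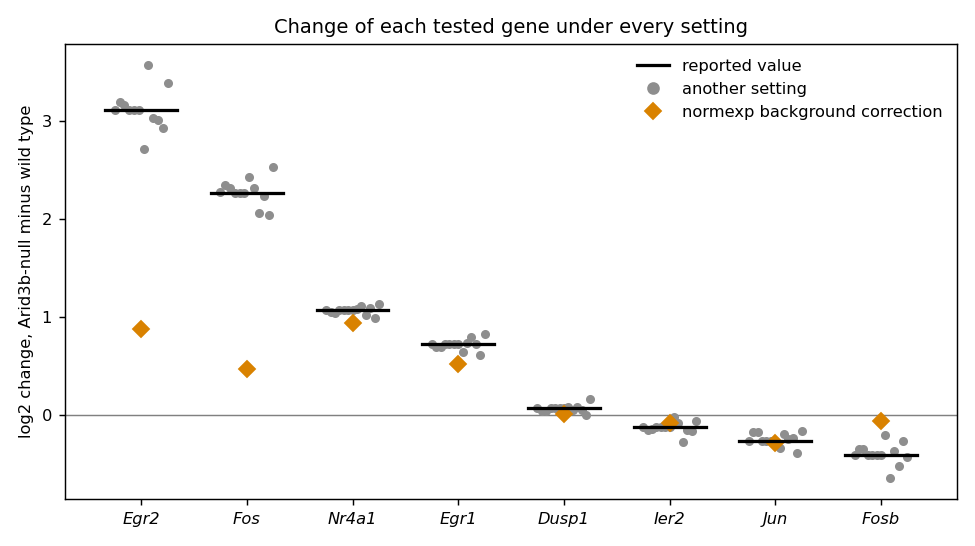
Change of each of the 8 tested genes in Arid3b-null against wild type, in log2 units, with the reported value as a bar, the alternatives as grey points and the normexp background correction as an orange diamond. Fos and Egr2 keep their sign and their call under every alternative that can give a value but shrink to 0.47 and 0.88 under normexp, Nr4a1 stays between 0.94 and 1.13, and Dusp1 crosses 0.

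Read per slide, the 4 genes that rose were higher in Arid3b-null on all 3 slides. Fos differed by 2.01, 2.63 and 2.17 on slides 1, 2 and 3, Egr2 by 4.09, 2.55 and 2.70, and Egr1 by 0.88, 0.93 and 0.35. Ier2 and Dusp1 had both signs over the slides, from -0.28 to 0.03 and from -0.14 to 0.25. Within the Arid3b-null group, replicate 3 was below the group mean for 7 of the 8 tested genes (median -0.20) and replicate 2 above it for 7 of 8 (median 0.19), while the medians of all genes were -0.05 and 0.01. Of all genes, 39.5% on replicate 3 and 52.7% on replicate 2 were above their own group mean. In the wild type group, 5, 6 and 4 of the 8 genes were above it on replicates 1, 2 and 3. For Egr1 the SD between pools was 0.22 in Arid3b-null and 0.16 in wild type, against a group difference of 0.72.

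**Figure D4:**
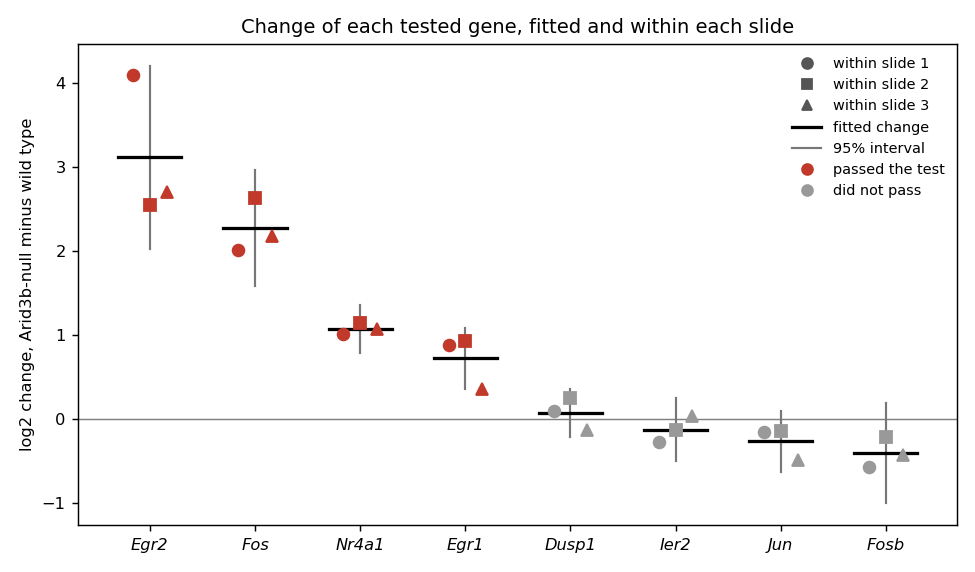
Arid3b-null minus wild type on each of the 3 slides for the 8 tested genes, in log2 units, beside the fitted change (bar) and its 95% interval (line), red where limma called the gene and grey where it did not. Fos, Egr2, Egr1 and Nr4a1 are above 0 on each slide, Fosb and Jun below 0 on each slide, and Ier2 and Dusp1 lie on both sides of 0.

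The other AP-1 genes and regulators of the same response were read from lists taken from general knowledge. These lists were chosen with earlier results of these data known, so their counts are not independent of the data. The counts of each list stand against 13.6% of all tested genes higher and 12.9% lower. Of 9 tested other AP-1 genes, 5 rose and 1 fell, with a median of 0.60. Maff and Mafk, small Maf factors without a transactivation domain, rose 3.72- and 1.52-fold, and Jdp2 and Atf3, which in AP-1 dimers can repress, rose 2.82- and 2.61-fold (limma adjusted p = 0.000797, 0.0113, 0.00107 and 0.00167). Fosl2, a Fos relative, rose 2.14-fold (limma adjusted p = 0.0257). Leaving out Arid3b-null replicate 2 or 3, or wild type replicate 1 or 3, ended that call (adjusted p = 0.0605 to 0.0769). Batf fell 1.34-fold (limma adjusted p = 0.0338), and 0 genes of this list fell once any 1 of the 6 arrays was left out. Jund, the constitutive Jun relative, had a change of -0.35 (limma adjusted p = 0.0732). The probe of Fosl1 was above background on 1 of 6 arrays and was not tested.

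Of 31 tested other immediate early regulators, 7 rose and 4 fell, with a median of 0.18. The 4 that fell are at the share of all tested genes, 12.9%, and the share of all tested genes that rose was 13.6%. Ier3, a stress-induced survival gene, was at -0.07, -0.0039 and -0.21 in Arid3b-null and at -4.09, -3.73 and -3.94 in wild type, the widest separation in the lists (14.2-fold, limma adjusted p = 0.0001). Under normexp its difference was 2.64 in place of 3.82. Klf9 and Gadd45b rose 2.16- and 2.01-fold, while Gadd45g and Plk3 fell 2.23- and 2.31-fold (limma adjusted p = 0.00155, 0.00254, 0.0023 and 0.00239). The other 2 that fell, named after their values were seen, were Klf2 at -1.67 and Btg2 at -1.09 (limma adjusted p = 0.00326 and 0.0229). Leaving out wild type replicate 1 brought the number that rose to 3, and leaving out Arid3b-null replicate 2 or wild type replicate 2 or 3 brought it to 4. Nr4a2, the nearest relative of Nr4a1, had a change of -0.32 (limma adjusted p = 0.0739), while Egr4, Nr4a3 and Zfp36 were too dim to be tested.

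Of 14 tested MAP kinase phosphatases and Sprouty and Spred genes, 4 rose and 1 fell, with a median of 0.30, where 13.6% of all tested genes rose and 12.9% fell. Dusp5, a nuclear phosphatase of ERK, was 1.95-fold higher (limma adjusted p = 0.00909), with 2 of 3 wild type arrays above background, and was not called under normexp (0.29, adjusted p = 0.111). It entered the test only through the Arid3b-null arrays, and 3 genes of this list rose when every array had to be above background. Dusp4 and Spred2 rose 1.499- and 1.36-fold and Dusp10 1.69-fold, and Dusp9 fell 1.59-fold (limma adjusted p = 0.0264, 0.0271, 0.0463 and 0.0169). Leaving out any 1 array other than Arid3b-null replicate 3 lost the calls of Dusp4 (adjusted p = 0.0605 to 0.0894) and Spred2 (0.0625 to 0.0896). The call of Dusp10 was lost without any 1 array other than wild type replicate 3 (0.0611 to 0.128), and that of Dusp9 without replicate 1 or 2 of either group (0.0510 to 0.0639). With the slide as a replicate block, Spred2 (adjusted p = 0.0515) and Dusp10 (0.0781) were not called. The number that rose was 1 without replicate 1 or 2 of either group and 2 without wild type replicate 3.

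Among 17 tested genes for SRF, its partners and CREB with its coactivators, 1 rose, 1 fell and 15 did not pass, with a median of 0.07. Nab2, a corepressor that binds Egr proteins and is itself induced with them, rose 1.91-fold (limma adjusted p = 0.00621). Creb1 fell 1.46-fold (limma adjusted p = 0.0310), a call kept without Arid3b-null replicate 1 but lost without any 1 of the other arrays (0.0612 to 0.0806) and with the replicate block (0.0681). Srf and Elk1, which encode SRF and 1 of its partners, had changes of 0.21 and 0.19, below the threshold (limma adjusted p = 0.290 and 0.315).

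Of 16 tested targets that SRF drives with its MRTF cofactors, 4 rose and 0 fell, with a median of 0.28. Tpm1 and Cnn2, actin-binding proteins, rose 1.69- and 1.58-fold (limma adjusted p = 0.00833 and 0.0105). Ccn2, a matrix protein induced by stretch and serum, and Flna, an actin crosslinker, rose 1.83- and 1.29-fold (limma adjusted p = 0.0336 and 0.0433). The call of Ccn2 was lost without replicate 1 of either group, wild type replicate 3 or Arid3b-null replicate 2 (0.0545 to 0.102), and that of Flna without any 1 of the 6 arrays (0.0664 to 0.139) and with the replicate block (0.0641). The number that rose was 2 without replicate 1 of either group, wild type replicate 3 or Arid3b-null replicate 2.

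**Figure D5:**
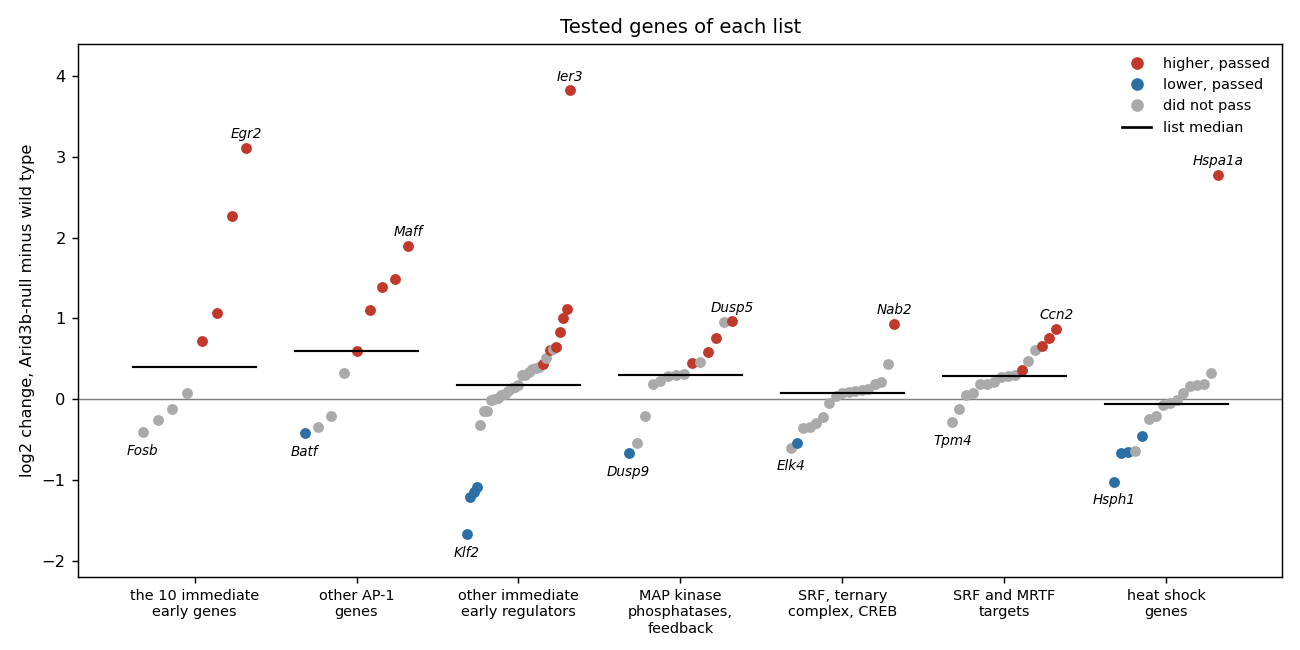
Change in Arid3b-null against wild type, in log2 units, of each tested gene of the immediate early group and of 6 related lists, with 1 point per gene, red (higher) or blue (lower) where limma called it at an adjusted p under 0.05, grey where it did not, and the list median as a line. The median is 0.40 for the immediate early genes, 0.60 for the other AP-1 genes and -0.06 for the heat shock genes. The first includes Fos and Egr2, which entered the test only through the Arid3b-null arrays.

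Handling of tissue can also start the heat shock genes. Of 16 tested, 1 rose and 4 fell, with a median of -0.06, where 13.6% of all tested genes rose and 12.9% fell. Hspa1a, the inducible chaperone, was at -1.22, -1.995 and -1.80 in Arid3b-null and at -4.26, -3.76 and -5.32 in wild type. It was 6.85-fold higher in Arid3b-null (log2 difference 2.78, limma adjusted p = 0.00507), 1.49 on the log2 scale under normexp, and the probe may also read Hspa1b, its near-identical copy. Hsph1 and Dnajb1, chaperone partners that the same factor induces, fell 2.03- and 1.59-fold (limma adjusted p = 0.00838 and 0.0118). Dnaja1 and Hsp90aa1 fell 1.57- and 1.37-fold (limma adjusted p = 0.0373 and 0.0454). The call of Dnaja1 was lost without any 1 array other than wild type replicate 3 (0.0504 to 0.113), and that of Hsp90aa1 without any 1 of the 6 arrays (0.0545 to 0.1197) and with the replicate block (0.0825). The number that fell was 2 if Arid3b-null replicate 2 or 3, or wild type replicate 1 or 2, was left out.

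Other cell types that the trunk can hold were read in the same way, and their part in these differences was not tested. Their counts stand against 13.6% of all tested genes higher and 12.9% lower. Of 6 endothelial markers (the brightest Kdr) 1 rose and 0 fell, with a summed signal of 5.44 to 7.12 in Arid3b-null and 6.39 to 9.60 in wild type. Of 6 primitive blood markers (the brightest Hbb-y) 0 rose and 2 fell, with sums of 453 to 541 in Arid3b-null and 569 to 752 in wild type. Of 6 cardiac markers (the brightest Myh6) 0 were called, with sums of 2.19 to 11.6 in Arid3b-null and 5.04 to 12.5 in wild type. Arid3b-null replicate 1 stood apart, with Myh6 at -2.03 against 2.86 and 2.44 on the other Arid3b-null arrays, and wild type replicate 1 was the lowest wild type array at 1.31. Without Arid3b-null replicate 1, Fos, Egr2, Nr4a1 and Egr1 were each still called. Of the 2 hindlimb markers, Pitx1 was tested and not called (limma adjusted p = 0.403) and Tbx4 was too dim to be tested. Of 4 tested macrophage markers (the brightest Csf1r) 0 rose and 1, Cx3cr1, fell, with sums of 0.759 to 1.57 in Arid3b-null and 1.32 to 2.07 in wild type. Cx3cr1 was above background on 3 wild type arrays and 1 Arid3b-null array. It thus entered the test only through the wild type arrays, in which it is brighter.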

How the data were processed

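Labels' protocols describe amplification of total RNA, Cy3 labelling and one-colour Agilent arrays. The spots were read with Agilent Feature Extraction 10.7.3.1 on design 026655, whose build is mm9, per the file headers. The deposited scanner files hold intensity on a linear scale, and in the processed signal background was already subtracted. A deposited value table holds log2 values of 24181 probes with column medians of 6.77 each. Centring and exact scaling of that table are not given in the sources used here, and it served as an alternative.

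Outlier spots (100 to 169 per array) were left out and spots of 1 probe averaged on the log2 scale, after each array was scaled to its 75th percentile of processed signal over non-control spots (611 to 844 scanner units). Between 60.7% and 68.1% of probes were well above background and 0 were saturated. The number of arrays limits the precision. Testing required signal well above background on the 3 arrays of 1 group or of both, and a gene stood by its brightest such probe. Of 39429 probes, 26424 matched 1 symbol in a RefSeq table of GRCm38.p6, used for names and promoter sequence only.

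The test was limma 3.58.1 (lmFit, eBayes, R 4.3.3) of Arid3b-null minus wild type, two-sided, adjusted by Benjamini-Hochberg over 19792 genes. Each adjusted p is from limma. The fit was tested on simulated data. An exact permutation test of 3 against 3 arrays could not go below 0.1 and was not used. Replicate numbers pair the arrays: same-numbered arrays share a slide, and their deviations from the group means correlated at 0.16, 0.39 and 0.28. The alternatives were median scaling, quantile normalization, normexp with offset 50, the deposited table, no filter and a stricter filter on dim probes, the mean of a gene's probes, the replicate block, and leaving out each array. The genes named are Arid3b, the 10 members, up to 5 called genes of each related list with the smallest adjusted p, and the brightest of each marker list, and others were named after their values were seen. The members and the lists were chosen with earlier results of these data known. Some markers of the hindbrain and cranial crest list as first written are not reported here.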

Additional observations from a re-analysis of the deposited data

How the results depend on the processing

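The count of changed genes, 5254, was 2286 with no filter on dim probes, and 2865 to 3935 when 1 array was left out. Of the immediate early genes, 4 were called, against 2 when every array had to be above background, which removes Fos and Egr2 by construction, 3 with no filter, and 3 to 4 when 1 array was left out. With the slide as a replicate block, 4776 genes and 4 of the immediate early genes were called, and the block changed no call of an immediate early gene. Dusp1 reversed to -0.0054 without Arid3b-null replicate 2, and its leave-one-out values ran from -0.0054 to 0.17. With no filter, 3 other AP-1 genes, 3 other regulators, 1 feedback gene and 1 SRF target rose and 1 heat shock gene fell, in place of 5, 7, 4, 4 and 4. With the deposited table, 2 feedback genes and 2 SRF targets rose and 2 heat shock genes fell. The cause was not tested. Signal over background limits Fos, Egr2, Junb and Egr3, and with 1 probe per gene no other probe checks any of them.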
